A study of Mus musculus with 29 samples.

Results

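Late-numbered miRNAs are described here in gonadal white adipose tissue (gWAT) of female New Zealand Obese (NZO) mice. They are the mature miRNAs with a miRBase number of 1000 or more and a mean count above 10 over all 29 libraries, apart from 5 numbers that were set aside. Members were thus chosen by their number and by their mean count, and this was met by 81 of 704 mature miRNAs with such a number, and 574 of the 1571 mature miRNAs in the data had a mean count above 10. Nearest to the limit, miR-7669-3p had a mean count of 10.4 and miR-3057-3p of 10.2, whereas miR-1949 with 9.69 and miR-1291 with 9.62 stayed outside.

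Small RNA was sequenced from gWAT of 15 diabetes-prone (DP) and 14 diabetes-resistant (DR) mice, all of the strain NZO/HIBomDife and genetically identical. All mice were fed a high-fat diet, were classified after 5 weeks of feeding by a risk score and were 10 weeks old at harvest, and the DR mice served as controls. The classification is phenotypic, so both groups share the genotype and the diet, and nothing in the labels pairs their mice. A library held 24266300 to 27662601 counts. The late-numbered miRNAs took a median of 0.197% of the mature counts in DP and 0.186% in DR libraries, and 80 or 81 of the 81 had a read in each library.

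MiRNAs are small RNAs cut from hairpin precursors, and the seed at bases 2 to 8 directs them to their target mRNAs. MiRBase numbers follow the order of deposition. High numbers mostly came from deep sequencing and are often known from rodents alone. Several are made by other routes than the common processing of a primary transcript by Drosha and DGCR8: mirtrons are hairpins whose ends are set by splicing of an intron, tailed mirtrons share only 1 end with the intron, and other miRNAs are cut from small nucleolar RNA (snoRNA), small Cajal body RNA (scaRNA) or tRNA.

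A mature sequence was found in RefSeq (GRCm38.p6) for 70 of the 81, at 60 loci on 19 chromosomes. Those listed below differed between the groups at an adjusted p under 0.05, and are written 5′ to 3′ with the seed in capitals.
miR-1199-5p: uCUGAGUCccggucgcgcgg
miR-7062-5p: uGGAGGCCagcuuguggagugucu
miR-3965: uGCUUAUCagccugauguu
miR-7689-3p: uUAGAGCCagacugccuggguuu
miR-6933-5p: uGGCGGCAgucaggauaccugu
miR-7043-3p: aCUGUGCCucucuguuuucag
miR-8114: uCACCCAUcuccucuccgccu
miR-3057-3p: uCCCACAGgcccagcucauagc
miR-1983: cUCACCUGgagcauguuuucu
miR-1843a-5p: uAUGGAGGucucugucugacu
miR-1843a-3p: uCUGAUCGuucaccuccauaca
No seed was shared between the 70 members with a sequence. Mature sequences were 19 to 26 bases long with a GC content of 36.4% to 94.7%, the highest in miR-6538.

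Most of the 8 highest late-numbered miRNAs are annotated or known as parts of other small noncoding RNAs. Levels are given as CPM (counts scaled to the TMM-adjusted library size). Those of mature miRNAs, which have about the same length, are compared as counted. Differences in how well each sequence is captured in a library were not corrected for. The 8 highest members held 82.6% of the summed level of the 81, and 6 of these 8 belonged to the list with an origin in another noncoding RNA. In the GENCODE annotation, the hairpin of miR-3068 overlaps a snoRNA gene on the same strand, and that of miR-1839 a scaRNA gene. These genes are entered there as Mir3068 and Mir1839, under the names of the miRNAs themselves. The hairpins of miR-1843a and miR-1843b overlap the paralogs Scarna3b and Scarna3a. The miR-1983 locus is known as an isoleucine tRNA, although the annotation has no such gene there. The whole list, in which the other 10 overlap an annotated gene, had 11 members and 63.3% of the summed level. Its highest members were miR-3068-5p and miR-1839-5p, with means of 249 and 203 CPM, whose overlapped genes carry the miRNAs' own names.

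MiR-3068-5p was highest, with a lowest, median and highest level of 196, 261 and 325 CPM in DP and 179, 235 and 330 CPM in DR mice. MiR-1839-5p had 134, 196 and 242 CPM in DP and 187, 214 and 253 CPM in DR mice. Both ranked below the leading miRNAs of the tissue, at positions 83 and 89 among the mature miRNAs. MiR-1198-5p, from an intron of Gripap1 on the X chromosome, had 115, 135 and 158 CPM in DP and 106, 125 and 229 CPM in DR mice. MiR-3074-2-3p had 59.8, 77.8 and 118 CPM in DP and 58.3, 72.6 and 93.1 CPM in DR mice. The groups overlapped in each of these 4 miRNAs, and none passed the test (adjusted p from 0.088 to 0.91 in edgeR's quasi-likelihood test, adjusted after Benjamini and Hochberg over 1162 features). Below these, levels dropped fast: the median member had 1.21 CPM, 33 members had less than 1 CPM and 11 had 10 CPM or more, against a median of 15.0 CPM in the 440 other mature miRNAs with a miRBase name.

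**Figure D1:**
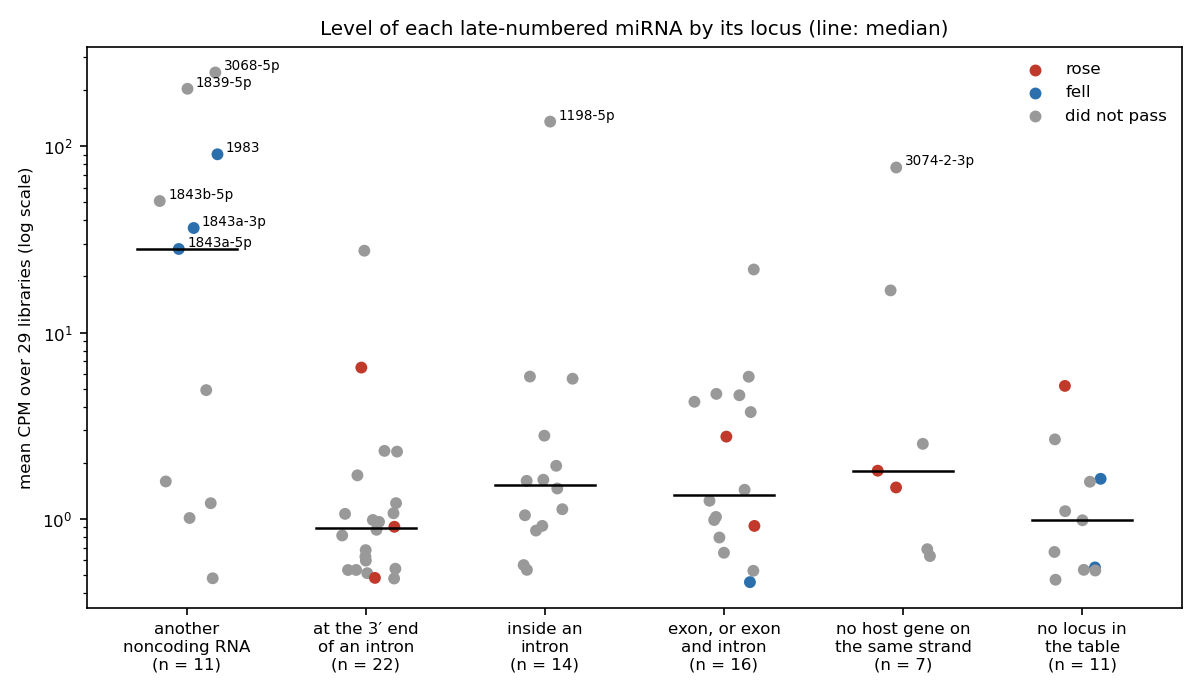
Mean CPM over 29 libraries (log scale) of the 81 late-numbered miRNAs, by locus; each point is a miRNA, coloured by its result in DP against DR mice, and lines are medians. The 11 miRNAs listed with an origin in another noncoding RNA had a median of 28.1 CPM, and the 22 at the 3′ end of an intron 0.89 CPM.

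A large group lay where an intron ends. For 22 members the hairpin reached the 3′ end of its intron within 5 bases (for miR-6900-3p, miR-6948-3p and miR-7116-3p, which have no hairpin entry, this was read from the mature sequence), and for 4 of these (miR-1981-5p, miR-1981-3p, miR-1982-3p and miR-6944-3p) it also reached the 5′ end. The introns of the latter belong to Marc2, Oaz1, which encodes an inhibitor of polyamine synthesis, and Dbn1. The other 18 lay at 1 end of introns of, among others, Acly, which makes acetyl-CoA for fatty acid synthesis, the complement gene C3, the mitochondrial kinase gene Pink1, Klf7, Tkt and Zeb2. In 18 members the mature 3p sequence itself ended within 5 bases of the intron end, and 13 of these ended in the letters ag, with which most introns end. Examples are shown for 2 of the complete introns and for 3 introns with 1 end.
miR-1982-3p: uCUCACCCuauguucucccacag
miR-6944-3p: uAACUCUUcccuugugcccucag
miR-7019-3p: uCACCUUGgccgccucucugcag
miR-6978-3p: aCGGCUUCacucucacccugcag
miR-7116-3p: uUUUUUUCcuuugccuucucag
MiR-1981-5p was the most abundant of this group, with 14.8, 26.3 and 34.2 CPM in DP and 22.3, 28.3 and 57.0 CPM in DR mice, and did not pass the test (adjusted p = 0.17). The group's 22 members took 5.04% of the summed level.

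Between DP and DR mice, 14 of the 81 late-numbered miRNAs differed, 8 of which rose and 6 fell in DP mice. Scaled by library totals in place of TMM, 11 rose and 3 fell. This is 17.3%, against 25.9% of all 1162 mature and hairpin miRNAs tested (14.0% higher and 11.9% lower in DP) and 29.8% of the 440 other named mature miRNAs. At an unadjusted p under 0.05, 25 members differed, against 37.6% of all features. The median log2 fold change was -0.06 for the members, of which 35 were above and 46 below 0, and 0.02 for all features. By abundance, the shares lay close together up to 1000 counts. With a mean count of 10 to 30, 11.6% of the late-numbered and 9.23% of the other named miRNAs passed. At 30 to 100 counts 4 of 19 and 19 of 76 passed, and at 100 to 1000 counts 30.8% and 32.7%. Above 1000 counts 1 of 6 late-numbered miRNAs passed, against 57 of 149 other named miRNAs (38.3%).

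**Figure D2:**
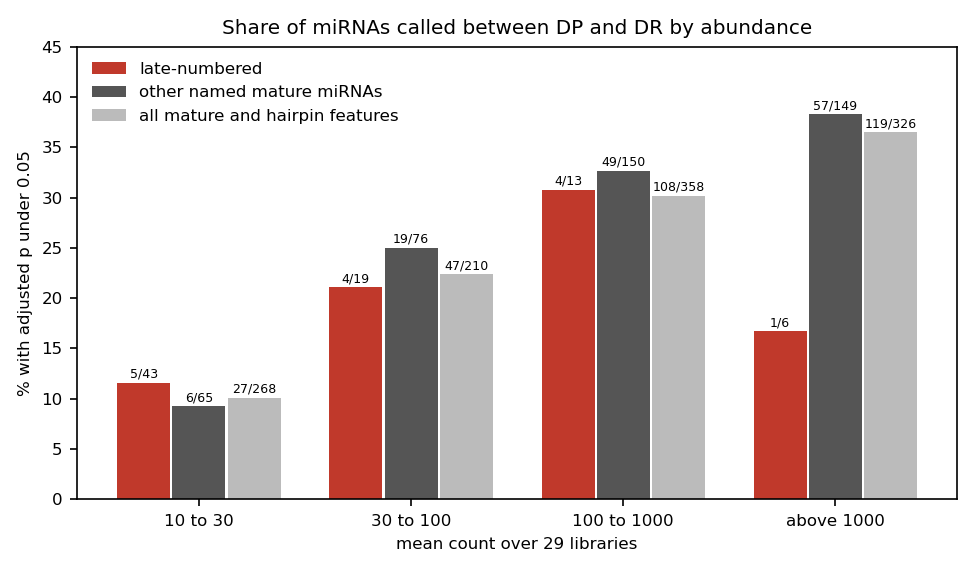
Share of miRNAs with an adjusted p under 0.05 (y axis, %) by mean count over 29 libraries (x axis) for late-numbered, other named mature and all mature and hairpin miRNAs; labels give the number called of the number tested. In the lowest class 5 of 43 late-numbered miRNAs passed, and in the class of 100 to 1000 counts 4 of 13.

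**Figure D3:**
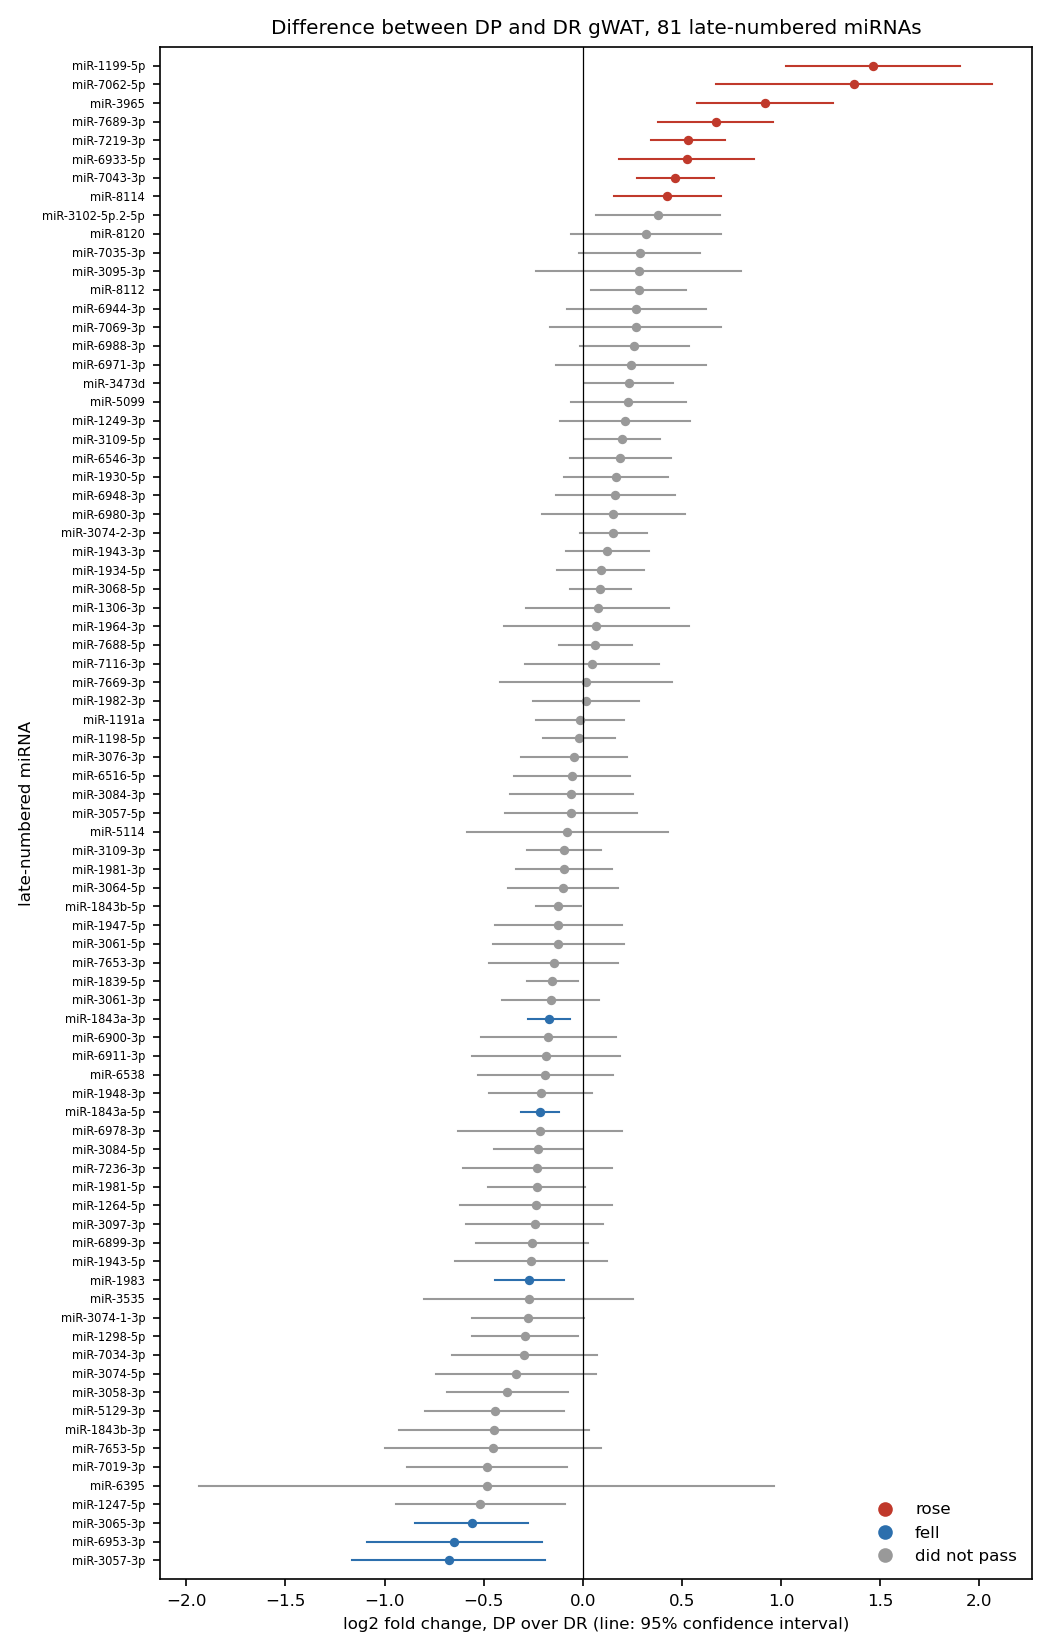
Log2 fold change of DP over DR (x axis) with its approximate 95% confidence interval for each of the 81 late-numbered miRNAs. The 8 miRNAs that rose reach from 0.43 (miR-8114) to 1.47 (miR-1199-5p), and the 6 that fell from -0.17 (miR-1843a-3p) to -0.68 (miR-3057-3p).

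MiR-1199-5p had the largest rise. Its hairpin lies in an exon of the transcript 2210011C24Rik (chr8:84011515-84011633, GRCm38). It had a lowest, median and highest level of 0.462, 1.31 and 2.61 CPM in DP and 0.189, 0.476 and 0.919 CPM in DR mice. In 12 of 15 DP mice it was above the highest DR mouse, and 14 were above the DR median. The log2 fold change was 1.47 ± 0.22 (SE; adjusted p = 1.0e-05, edgeR). These levels rest on 4 to 60 counts per library, and the other arm had a mean count of only 0.103.

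MiR-7062-5p, which comes from an intron of Adam8 (chr7:139986809-139986874), a gene for a membrane metalloprotease of myeloid cells, had 0.122, 0.641 and 1.39 CPM in DP and 0, 0.262 and 0.646 CPM in DR mice. In DP mice 7 of 15 were above the highest DR mouse, and the ranges overlapped. Its log2 fold change was 1.37 ± 0.36 (SE; adjusted p = 0.0039, edgeR), from 0 to 29 counts per library.

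MiR-3965 (chr5:134326454-134326522) lies outside annotated genes. It had 0.987, 2.01 and 3.10 CPM in DP and 0.553, 1.01 and 1.53 CPM in DR mice, and 10 of 15 DP mice were above every DR mouse. The log2 fold change was 0.92 ± 0.17 (SE; adjusted p = 1.5e-04, edgeR). Its sequence is within 2 mismatches of miR-21a-5p, a miRNA of inflamed and fibrotic tissue that had a mean count of 417345.
miR-3965: uGCUUAUCagccugauguu
miR-21a-5p: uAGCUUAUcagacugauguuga
The aligned sequences start 1 base apart, so that their seeds differ. MiR-21a-5p itself had a log2 fold change of 0.74 ± 0.10 (adjusted p = 1.9e-06, edgeR). Per 100000 counts of miR-21a-5p, there were between 5.28 and 13.4 counts of miR-3965 in DP and between 4.56 and 9.71 in DR mice, and the log2 ratio was 0.19 higher in DP (two-sided permutation test, p = 0.22). The ratio was not a planned comparison. With 13 to 71 counts of miR-3965 per library, its test cannot show that both miRNAs change alike. Whether reads of miR-21a-5p entered the counts of miR-3965 was not tested.

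MiR-7689-3p, which lies opposite Sorcs2 on chromosome 5, had 1.43, 2.18 and 3.05 CPM in DP and 0.774, 1.35 and 2.12 CPM in DR mice (log2 fold change 0.67 ± 0.15, adjusted p = 7.8e-04, edgeR). MiR-7219-3p had 4.85, 6.42 and 7.20 CPM in DP and 3.02, 4.04 and 6.09 CPM in DR mice (0.53 ± 0.10, adjusted p = 9.1e-05). MiR-7043-3p, from the 3′ end of an intron of Rassf4, which encodes a Ras association domain protein, had 5.68, 7.30 and 9.93 CPM in DP and 3.74, 5.37 and 7.65 CPM in DR mice (0.47 ± 0.10, adjusted p = 5.5e-04). In these 3 miRNAs all 15 DP mice were above the DR median, while 6 to 8 were above the highest DR mouse. These 3 miRNAs had 17 to 248 counts per library.

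MiR-6933-5p, from an intron of Pgs1, which encodes an enzyme of cardiolipin synthesis, had 0.459, 1.09 and 1.52 CPM in DP and 0.255, 0.753 and 1.06 CPM in DR mice (log2 fold change 0.52 ± 0.17, adjusted p = 0.023, edgeR). MiR-8114, in an exon of Glul, the gene of glutamine synthetase, had 2.11, 2.84 and 5.52 CPM in DP and 1.31, 2.38 and 3.08 CPM in DR mice (0.43 ± 0.14, adjusted p = 0.020). In both, most DP mice lay above the DR median, 12 of 15 for the first and 13 for the second. Without the filter on low counts their adjusted p was 0.078 and 0.063.

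Among the 6 that fell, miR-1843a-5p had 23.2, 26.2 and 30.3 CPM in DP and 27.3, 30.3 and 34.3 CPM in DR mice. In DP, 13 of 15 mice were below every DR mouse, and none was above the DR median. The log2 fold change was -0.22 ± 0.05 (SE; adjusted p = 9.0e-04, edgeR), with 534 to 784 counts per library. The other arm, miR-1843a-3p, had 29.7, 34.4 and 43.5 CPM in DP and 33.8, 37.7 and 43.9 CPM in DR mice (-0.17 ± 0.05, adjusted p = 0.018). Without DR replicate 4 or 5 its adjusted p was 0.053 and 0.055, with library totals 0.21 and in edgeR's exact test 0.080.

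The copy on the other chromosome, miR-1843b, did not pass on either arm. MiR-1843b-5p had 41.2, 48.4 and 57.2 CPM in DP and 46.04, 52.9 and 60.8 CPM in DR mice (-0.12 ± 0.06, adjusted p = 0.12). The copies share their 5p sequence without a mismatch but are annotated 1 base apart, which gives each another seed.
miR-1843a-5p: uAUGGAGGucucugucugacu
miR-1843b-5p: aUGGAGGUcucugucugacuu
The assignment of reads to these copies is therefore uncertain. Summed over both, the log2 level was 0.16 lower in DP mice (6.22 against 6.38, two-sided permutation test, p = 0.0013), an analysis chosen after the values were seen.

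MiR-1983 had 63.1, 80.9 and 106 CPM in DP and 76.6, 98.7 and 131 CPM in DR mice (log2 fold change -0.27 ± 0.09, adjusted p = 0.022, edgeR). The lowest 6 DP mice were below every DR mouse. With library totals its adjusted p was 0.13. With miR-1843a-5p and miR-1843a-3p it made up the 3 of 11 members from other noncoding RNA that fell, and none of the 11 rose, against 11.9% lower and 14.0% higher of all features. These 3 members come from 2 hairpins, and with library totals only miR-1843a-5p passed. The list's median log2 fold change was -0.17, against 0.02 for all features.

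MiR-3065-3p, which is encoded on the strand opposite miR-338, had 0.958, 1.22 and 2.96 CPM in DP and 1.41, 1.86 and 3.02 CPM in DR mice, and 12 of 15 DP mice were below every DR mouse (-0.56 ± 0.15, adjusted p = 0.0040, edgeR). Among the miRNAs of the opposite strand, miR-338-5p (-0.20 ± 0.13, adjusted p = 0.29) and miR-338-3p (-0.24 ± 0.11, adjusted p = 0.10) did not pass. With library number in the fit, miR-338-3p had an adjusted p of 0.0043 (a term for numbers from 200) and 0.016 (a linear term). Without DR replicate 11, miR-338-5p had an adjusted p of 0.0080 (-0.27). No sequence or locus was available here for miR-3065-3p, so its overlap with the arms of miR-338 was not determined. Without strand, reads from overlapping stretches cannot be told apart. MiR-6953-3p had 0.140, 0.440 and 0.768 CPM in DP and 0.414, 0.708 and 1.25 CPM in DR mice (-0.65 ± 0.22, adjusted p = 0.031). Without DP replicate 13 or DR replicate 8 its adjusted p was 0.051 and 0.054, and without the filter 0.057. MiR-3057-3p, from an exon of Apba3, had 0, 0.348 and 0.800 CPM in DP and 0.182, 0.595 and 0.799 CPM in DR mice (-0.68 ± 0.25, adjusted p = 0.043). At 0 to 20 counts per library, it had an adjusted p of 0.050 to 0.067 in 13 of the 29 fits that left out 1 library and of 0.083 with library totals or without the filter.

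**Figure D4:**
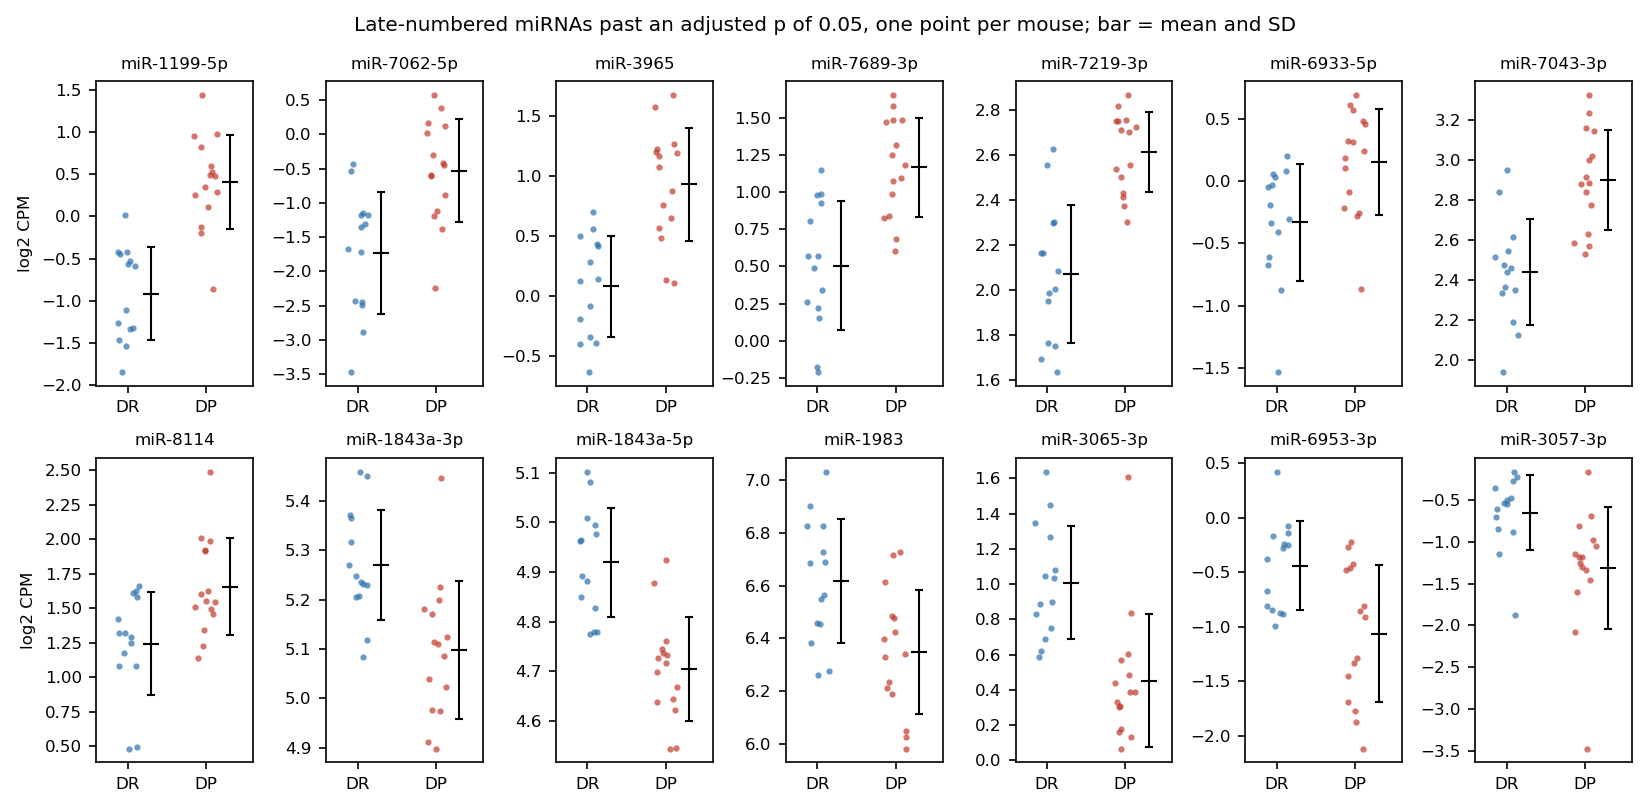
Log2 CPM (y axis) of the 14 late-numbered miRNAs with an adjusted p under 0.05, a point for each of 14 DR and 15 DP mice, with the mean and SD beside them; each panel has its own scale. The groups overlap in every panel, least in miR-1843a-5p, where 13 DP mice lie below all DR mice, followed by miR-1199-5p, where 12 lie above, and miR-3065-3p, where 12 lie below.

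In no late-numbered miRNA were the ranges of the groups separate, which held for 0.344% of all features. The library numbers in the sample titles are not balanced between groups (10 DP and 6 DR libraries below 200, 5 DP and 8 DR from 200). Below 200, 12 late-numbered miRNAs passed, against 25.9% of all features, and 10 of them were among the 14. From 200, none passed in edgeR's test, against 0.344% of all features, and 12 had an unadjusted p under 0.05, against 18.8% of all features. All 14 kept their sign in both subsets. For miR-1199-5p the log2 fold change was 1.77 below 200 and 0.998 from 200, and for miR-1843a-5p it was -0.24 and -0.14.

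Markers of several cell types also differed between the groups. Of all 1162 features, 25.9% did so, 14.0% higher and 11.9% lower in DP. Of 5 leukocyte miRNAs, 4 rose (miR-142a-3p, miR-142a-5p, miR-223-3p and miR-146b-5p) and the lymphocyte miRNA miR-150-5p fell, and none was at 0 in a library. Their summed level was 4658 to 6834 CPM in DP and 5516 to 8892 CPM in DR mice, most of it miR-150-5p. Of 4 adipose miRNAs, which were present in every library, 2 fell, and their summed level was 3945 to 6254 CPM in DP and 5598 to 9289 CPM in DR mice. Both endothelial miRNAs fell (55439 to 79477 CPM against 69416 to 99146 CPM). Of 4 epithelial miRNAs 2 rose and 1 fell (27.6 to 89.7 CPM against 30.7 to 37.1 CPM). None of 3 muscle miRNAs (9.68 to 342 CPM in DP, 19.9 to 703 CPM in DR) and none of 3 erythroid miRNAs passed. The part of cell composition in the 14 changes was not tested, and fewer cells of a type cannot be told apart from less RNA per cell in bulk tissue.

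Among the 22 members at the 3′ end of an intron, 3 rose (miR-7062-5p, miR-6933-5p and miR-7043-3p) and none fell, against 14.0% higher and 11.9% lower of all features, with 10 of 22 above 0 and a median log2 fold change of -0.07. MiR-6546-3p, in an intron of the IgG receptor gene Fcgr3, had 0.881, 1.73 and 2.31 CPM in DP and 1.07, 1.43 and 2.20 CPM in DR mice (0.19 ± 0.13, adjusted p = 0.29). MiR-7116-3p of Acly (0.04 ± 0.17, adjusted p = 0.88) and miR-6978-3p of C3 (-0.22 ± 0.21, adjusted p = 0.48) did not pass either. MiR-5114, in an exon of the fatty acid desaturase gene Scd2, had 0.087, 0.659 and 0.969 CPM in DP and 0.219, 0.655 and 1.34 CPM in DR mice (-0.08 ± 0.26, adjusted p = 0.86). MiR-1247-5p, in an exon of Dio3os at the end of the imprinted Dlk1-Dio3 region, had 2.06, 4.47 and 8.99 CPM in DP and 2.57, 6.88 and 11.2 CPM in DR mice (-0.52 ± 0.22, adjusted p = 0.081). In a fit with a term for numbers from 200, its adjusted p was 6.6e-04, and in DESeq2 0.048.

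By number, the 24 members below 2000 held 1 that rose and 3 that fell, and the 22 from 3000 to below 4000 held 1 and 2. Of 14 members from 7000 to below 8000, 4 rose and none fell. The 15 from 6000 to below 7000 held 1 of each, none of the 3 from 4000 to below 6000 passed, and of the 3 from 8000 on 1 rose. Of all features, 14.0% were higher and 11.9% lower, and no difference between these ranges of number was tested.

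Both arms of the stem were members in 9 cases. The arms differed most in miR-1843b, where the 5p arm was 106 times as high as the 3p arm (50.8 against 0.480 CPM), followed by miR-1981 with 11.9 times and miR-3057 with 10.1 times more of the 5p arm. The 3p arm was higher in miR-3109 (3.63 times), miR-1943 (1.99), miR-7653 (1.51) and miR-1843a (1.30). The 5p arm led 4.04 times in miR-3084 and 1.27 times in miR-3061. As the assignment of 5p reads to miR-1843a and miR-1843b is uncertain, the arm ratios of these stems are uncertain too. Only in miR-1843a did both arms fall. In miR-3057 the rarer 3p arm fell, and the 5p arm had 1.99, 4.35 and 8.51 CPM in DP and 3.19, 4.27 and 7.57 CPM in DR mice (-0.06 ± 0.17, adjusted p = 0.84). A difference between the arms' changes was not tested.

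The miR-3074 and miR-24 loci lie on opposite strands. The mature miR-3074-2-3p covers 20 bases of chromosome 8 (chr8:84208839-84208858) that lie, on the other strand, within miR-24-2-5p.
miR-3074-2-3p: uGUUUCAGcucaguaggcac
miR-24-2-5p: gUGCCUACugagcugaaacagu
There were 0.387 to 0.604 counts of miR-3074-2-3p per count of miR-24-2-5p in DP and 0.448 to 0.567 in DR mice. The log2 fold change was 0.15 ± 0.09 (adjusted p = 0.19) for miR-3074-2-3p and 0.22 ± 0.09 (adjusted p = 0.062) for miR-24-2-5p. Whether strand was used in counting is not given in the sources used here, and without strand the reads of these miRNAs cannot be told apart. MiR-3074-1-3p (-0.28 ± 0.14, adjusted p = 0.16) and miR-3074-5p (-0.34 ± 0.21, adjusted p = 0.24) did not pass, whereas miR-24-1-5p rose (0.67 ± 0.13, adjusted p = 2.7e-04).

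Of 70 members with a sequence, 4 shared the seed of another measured miRNA. MiR-5129-3p, from Zeb2, has the seed of miR-455-5p.
miR-5129-3p: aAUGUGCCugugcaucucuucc
miR-455-5p: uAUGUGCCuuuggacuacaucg
MiR-5129-3p had 0.277, 0.528 and 1.03 CPM in DP and 0.501, 0.796 and 1.25 CPM in DR mice (-0.44 ± 0.18, adjusted p = 0.067), while miR-455-5p, a miRNA known in brown adipocyte development, rose by 0.67 ± 0.10 (adjusted p = 8.4e-06). MiR-3473d (0.23 ± 0.11, adjusted p = 0.13) has the seed of miR-674-5p, which rose (0.52 ± 0.11, adjusted p = 5.9e-04). MiR-7069-3p (0.27 ± 0.22, adjusted p = 0.39) has that of miR-18a-3p, which rose (0.57 ± 0.18, adjusted p = 0.018). MiR-1983, which fell, has the seed of miR-412-3p (0.40 ± 0.19, adjusted p = 0.12).

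Hairpin rows of the same name were available for comparison in 67 members with a mean hairpin count above 10. Of these, 9 passed, against 24.7% of all hairpin miRNAs. The arms of 1 precursor, such as those of miR-1843a, have hairpin rows of their own with different counts, so a row does not stand for the whole precursor. Whether a hairpin row counts other reads than the mature row is not given in the sources used here, so the rows may not be independent. In 4 of the 9 the mature miRNA passed too, in the same direction (miR-1983, miR-1843a-3p, miR-7043-3p and miR-7219-3p), with hairpin log2 fold changes of -0.37 ± 0.08, -0.19 ± 0.06, 0.52 ± 0.08 and 0.65 ± 0.10. In 4 others the mature miRNA alone passed: the hairpin row had 0.03 ± 0.21 (adjusted p = 0.93) for miR-1843a-5p, 0.30 ± 0.12 (adjusted p = 0.058) for miR-8114, -0.25 ± 0.18 (adjusted p = 0.31) for miR-6953-3p and -0.24 ± 0.21 (adjusted p = 0.42) for miR-3057-3p. In 5 the hairpin row alone passed. It rose for miR-6944-3p (0.45 ± 0.12) and miR-7035-3p (0.55 ± 0.15), and it fell for miR-7034-3p (-0.55 ± 0.16), miR-3058-3p (-0.53 ± 0.17) and miR-1981-3p (-0.24 ± 0.07). For 6 of the 14 mature miRNAs that passed, miR-1199-5p and miR-7062-5p among them, the hairpin row had a mean count of 10 or less.

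Variation between mice was largest for miR-6395. The coefficient of variation of CPM over all mice ranged from 10.5% (miR-1843b-5p) to 87.7% (miR-6395), with a median of 30.2%. MiR-6395 was nearly absent in 12 libraries, which had 0 to 5 counts, and had 59 to 139 counts in the other 17. Of the DP mice 7 were at or below 0.229 CPM and 8 at 2.72 to 5.37 CPM. Of the DR mice 5 were at or below 0.107 CPM and 9 at 3.63 to 6.08 CPM. No mouse lay between these levels, and both groups and both ranges of library number held mice of either kind. Below 200, 6 of 10 DP and 1 of 6 DR mice were low, and from 200, 1 of 5 DP and 4 of 8 DR mice. The log2 fold change was -1.34 (adjusted p = 0.35) below 200 and 0.59 (adjusted p = 0.86) from 200. Over all mice, the fit gave a log2 fold change of -0.48 ± 0.74 (adjusted p = 0.67). The hairpin row of miR-6395 had reads in every library, with 3 to 37 counts in the libraries low in the mature miRNA and 2 to 18 counts in the others, so it did not show the same division.

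**Figure D5:**
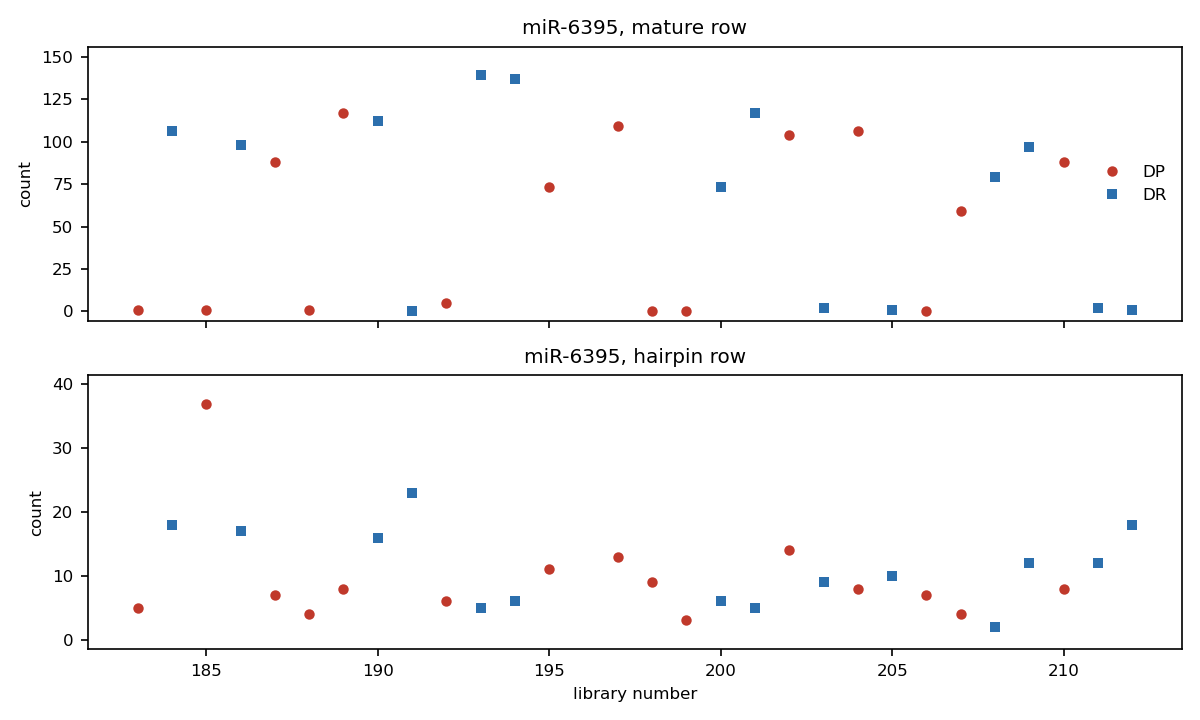
Counts of miR-6395 (y axis) in the mature row (upper panel) and the hairpin row (lower panel) by library number (x axis), a point per mouse. In the mature row 12 mice lie at 0 to 5 counts and 17 at 59 to 139, with DP and DR mice on both levels.

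With miR-6395 and miR-7062-5p, miR-1964-3p and miR-3535 had the highest dispersion in the fit. MiR-1964-3p, from an intron of Zfp84, stood at 15.1 CPM in DP replicate 7 and in DR replicate 3, with the next highest mouse at 10.05 CPM and a median of 4.72 CPM (log2 fold change 0.07 ± 0.24, adjusted p = 0.87). Without the former the log2 fold change was -0.10, and without the latter 0.25. MiR-3535 overlaps the snoRNA gene Gm24148, under which it is itself entered in RefSeq. By transcript, it lies in an exon or an intron of the nucleolin gene Ncl. MiR-3535 was at 0 in DP replicate 2 and at 0.918 CPM or more in every other mouse (-0.27 ± 0.27, adjusted p = 0.48). In a library of this depth, a count of 0 allows up to 3 counts.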

How the data were processed

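Total RNA was isolated with the miRNeasy kit, and small RNA was sequenced by BGI; alignment used Bowtie2 and the build mm10, per the submitters' processing notes. The authors deposited raw counts per small RNA and library, without normalization. Whether strand was used in counting is not given in the sources used here. Rows that name no RNA (4 rows, 6.89% to 12.1% of the counts) were left out.

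Following the methods of the study, 1162 mature and hairpin features whose mean count exceeded 10 entered a single fit. The quasi-likelihood test in edgeR 4.0.16 (R 4.3.3) gave DP over DR after TMM scaling, and p-values were adjusted after Benjamini and Hochberg over these 1162. The words rose and fell stand for an adjusted p under 0.05. The SE was taken as the size of the log2 fold change divided by the square root of the test's F statistic. Intervals are approximate 95% confidence intervals, 1.96 SE to either side. The members and lists were chosen with earlier results of these data known. The miRNAs named are those with an adjusted p under 0.05, the 8 most abundant, stems with both arms, members of the lists, those next to the count limit and the 4 with the highest dispersion. Host genes stem from GENCODE M21, sequences and loci from RefSeq (GRCm38.p6). MiRNAs without a sequence there are only named. Where a mature miRNA had several loci, the first was used.

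Permutation tests used 100000 permutations. The fit was tested on simulated counts. Each mouse gave 1 library. Whether reads carried molecular identifiers is not given in the sources used here. The range given for a count of 0 covers counting error only. Alternatives were other scalings (size factors, library totals), filters, DESeq2 1.42.0, limma-voom (limma 3.58.1), the exact test of edgeR, library number as a term, subsets by library number, and leaving out each library.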

Additional observations from a re-analysis of the deposited data

How the results depend on the processing

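The number of late-numbered miRNAs that rose (8) and fell (6) was 8 to 10 and 4 to 8 when each library was left out. With library totals in place of TMM, and likewise with the totals of all named features, 11 rose and 3 fell. Over all features the split was then 238 higher and 102 lower, against 163 and 138 with TMM. The median log2 fold change of all features was 0.09 with library totals and 0.02 with TMM. Size factors and limma-voom gave 8 and 6, DESeq2 8 and 7. With a term for library numbers from 200, 9 rose and 8 fell, and with library number as a linear term 8 and 8. With features of a mean count above 50 alone, 3 rose and 4 fell, and among the 27 members above 50 counts 3 and 3 passed, since fewer were tested. At an unadjusted p under 0.05, 12 were higher and 13 lower. In libraries numbered from 200 (5 DP and 8 DR), 0 rose and 0 fell, against 0.344% of all features called. In those below 200 (10 DP and 6 DR), 7 rose and 5 fell, against 25.9% of all features. The reason for this contrast was not tested. Of the 14 miRNAs, 8 passed in every fit on all mice that kept them and in every fit without 1 library: miR-1843a-5p, miR-7043-3p, miR-7219-3p, miR-7689-3p, miR-3065-3p, miR-3965, miR-1199-5p and miR-7062-5p. None of the 14 changed sign under any alternative run. No paired analysis was possible because the labels give no replicate numbers that the groups share.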

Other observations

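Below the count limit lay 623 further late-numbered miRNAs, 394 of them with a mean count of 1 or less, and 55 had a read in every library. In the edgeR fit without a filter on low counts, 4 of the 620 with any count had an adjusted p under 0.05 and 35 an unadjusted p under 0.05 (0.645% and 5.65%), against 1.56% and 10.2% of all 1922 mature and hairpin features at or below the limit. MiR-7649-3p, with a mean count of 8.24, had a log2 fold change of 0.67 ± 0.22 (SE; adjusted p = 0.048). MiR-3105-5p had a mean count of 2.10 (-1.47 ± 0.45, adjusted p = 0.032). MiR-1956 and miR-6918-5p had mean counts of 0.931 and 0.414, under 1 read per library.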
